A study of Mus musculus with 203 samples.

Results

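Alveolar fibroblasts are the mesenchymal cells that lie in the walls of the air spaces, beside the alveolar epithelium and the capillaries. Levels of 10 genes that mark them were followed, and the genes were chosen by name from the 43346 identifiers of one gene count table. These were the transcription factors Tcf21, Tbx2 and Tbx4, the matrix protein Npnt and its integrin Itga8, the receptors Pdgfra and Fgfr4, and Inmt, Pcolce2 and Nox4, which encode enzymes and a collagen-processing protein. The choice was made in part because Pcolce2, Itga8, Tcf21 and Nox4 fell strongly with house dust mite (HDM) extract at 3 weeks, so the 3 week values of all 10 genes are given as a description without a test.

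The libraries were bulk RNA-seq of airway and parenchyma, the gas-exchanging tissue, dissected from lungs of female Balb/C mice whose age the labels give as 18 to 20 weeks in every group, and no genetic modification is named. At 3 weeks mice had received HDM or phosphate buffered saline (PBS) through the nose on 5 days per week. At 11 weeks, the 8 groups of each compartment had received HDM, 3 times per week from week 4 on, or PBS, each with cigarette smoke (CS) for 8 weeks or room air (AIR), and each with or without dexamethasone (DEX), a glucocorticoid, during week 11, and the labels do not plainly say whether these HDM mice had also been exposed in the first 3 weeks. The 20 groups held 43 libraries at 3 weeks and 160 at 11 weeks, with 10 libraries in each group except PBS airway at 3 weeks (11) and PBS parenchyma at 3 weeks (12). The groups at 11 weeks are named PBS.AIR, HDM.AIR, PBS.CS, HDM.CS and the same with DEX added. HDM and smoke serve here as models of asthma and of chronic obstructive lung disease in 1 inbred strain and 1 sex.

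In the lung, alveolar fibroblasts make and hold the elastic and collagen scaffold of the alveolar wall, and the lipid-storing ones among them supply lipid and growth factors to alveolar type II cells. Tcf21 is a basic helix-loop-helix factor of lung mesenchyme that binds DNA at E-boxes together with partners such as Tcf12, and Tbx2 and Tbx4 are T-box factors of the same tissue. Nephronectin, the product of Npnt, is a ligand in the basement membrane for integrin alpha8 beta1. Pdgfra and Fgfr4 are receptor tyrosine kinases, and Fgfr4 works with the co-receptor Klb in some tissues. Inmt methylates indoleamines such as tryptamine, Pcolce2 helps the proteinase Bmp1 to trim procollagen, and Nox4 is an NADPH oxidase that makes hydrogen peroxide together with Cyba.

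Total counts ranged from 13003154 to 40240733 per library with a median of 28090684, and the 10 genes had between 21 and 78898 counts in every library, so all 10 were tested among 17377 genes at 3 weeks and 18250 at 11 weeks. Levels are given as CPM, the counts scaled to library size with trimmed-mean (TMM) factors. There were 11 libraries, 3 at 3 weeks and 8 at 11 weeks, that stood apart from their group, their mean correlation with it lying at least 0.03 below the group's median over the 2000 most variable genes. A further check found 14 libraries, 13 of them labelled airway, that were closest to a group of the other compartment. The labels do not say which airway and parenchyma libraries came from the same mouse, so libraries were treated as independent, and p-values measure the spread between these libraries. In bulk tissue, fewer fibroblasts and less RNA of a gene per fibroblast cannot be told apart. All 20 further alveolar fibroblast marker genes that were listed (such as Col13a1, Ces1d and Gpc3) were detected and tested, and they are set beside the 10 genes at 11 weeks. Genes of other cells were lower with HDM too, so a shared direction cannot check the label of the 10 genes.

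The sequence just before the transcription start given by RefSeq is shown for Tcf21, Itga8, Inmt and Pcolce2. The first encodes an E-box binding factor, Itga8 and Inmt had the largest decreases with HDM at 3 weeks, in parenchyma and in airways respectively, and Pcolce2 was the gene with the largest decrease both with smoke and with dexamethasone in parenchyma of PBS mice. Sequences and starts come from a set of RefSeq promoters on GRCm38.p6, and the set used here held 9 of the 10 genes (Tbx2 is named only). Each is the 250 bases before the RefSeq start, written 5′ to 3′ on the gene's strand, and capitals mark E-boxes, CANNTG. They lie at chr10:22820144-22820393 (minus strand) for Tcf21, chr2:12301945-12302194 (minus) for Itga8, chr6:55174991-55175240 (minus) for Inmt and chr9:95637378-95637627 (plus) for Pcolce2.
Tcf21: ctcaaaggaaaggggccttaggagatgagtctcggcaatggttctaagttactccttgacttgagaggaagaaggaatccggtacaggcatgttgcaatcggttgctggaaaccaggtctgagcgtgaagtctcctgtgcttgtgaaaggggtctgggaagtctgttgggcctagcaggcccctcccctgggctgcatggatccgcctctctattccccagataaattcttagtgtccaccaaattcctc
Itga8: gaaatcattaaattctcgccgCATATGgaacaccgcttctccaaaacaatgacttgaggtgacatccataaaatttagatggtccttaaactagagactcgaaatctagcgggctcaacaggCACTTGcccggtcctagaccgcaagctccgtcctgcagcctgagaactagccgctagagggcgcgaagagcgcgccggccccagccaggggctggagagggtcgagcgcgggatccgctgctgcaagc
Inmt: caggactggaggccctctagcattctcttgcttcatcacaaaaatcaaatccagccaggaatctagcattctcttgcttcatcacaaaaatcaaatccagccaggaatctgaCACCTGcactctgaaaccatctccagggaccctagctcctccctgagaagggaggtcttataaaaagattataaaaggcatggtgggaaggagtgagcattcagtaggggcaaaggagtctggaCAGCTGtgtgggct
Pcolce2: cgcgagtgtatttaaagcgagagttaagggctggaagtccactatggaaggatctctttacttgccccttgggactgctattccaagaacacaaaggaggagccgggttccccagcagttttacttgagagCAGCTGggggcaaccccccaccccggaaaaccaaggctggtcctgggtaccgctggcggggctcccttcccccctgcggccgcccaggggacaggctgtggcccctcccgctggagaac

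Tcf21 had no E-box in its window, Itga8 and Inmt had 2 each and Pcolce2 had 1. CANNTG, searched on both strands, was present for 8 of the 9 genes and in 66.2% of all 32851 RefSeq mouse promoters of the same length. The form CAGCTG, which also matches CANNTG, was present for Inmt, Nox4, Pcolce2 and Tbx4, which are 4 of 9 genes against 13.0% of all promoters. The T-box half-site AGGTGT was found for Inmt and Pdgfra against 11.8% of promoters. The glucocorticoid receptor half-site AGAACA was found for Pcolce2 alone among the 9 genes against 16.1% of promoters. These are matches of letters in a short window, with no measurement of binding. The RefSeq starts differ from the gene bounds of GENCODE M21, which are used for gene coordinates below. By those bounds the windows of Nox4 and Tbx4 and a window of Npnt lie wholly inside the gene. The windows of Tcf21, Inmt, Pcolce2 and Fgfr4 reach partly into it. Some of the matches thus do not lie before the gene as M21 places it.

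The 10 genes span a wide range of levels per kilobase of annotated exon. In PBS.AIR parenchyma the median level was 1434 CPM per kb for Inmt and 96.9 for Npnt. Then came Tcf21 (48.7 CPM per kb), Pcolce2 (45.8), Tbx2 (36.8), Itga8 (36.7) and Pdgfra (23.4). The lowest levels per length were those of Tbx4 (18.5), Nox4 (11) and Fgfr4 (8.87). Tcf21 (mean ± SD of 48.5 ± 8.48 CPM per kb, n = 10) and Pcolce2 (45.4 ± 5.25) did not differ beyond their spread, and neither did Tbx2 (37.9 ± 7.03) and Itga8 (37.2 ± 5.37). With the longest transcript as the length, Inmt was at 2130.0 CPM per kb and Nox4 rose above Tbx4 (23.7 against 20), so the order of close neighbours depends on the transcript length used.

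**Figure D1:**
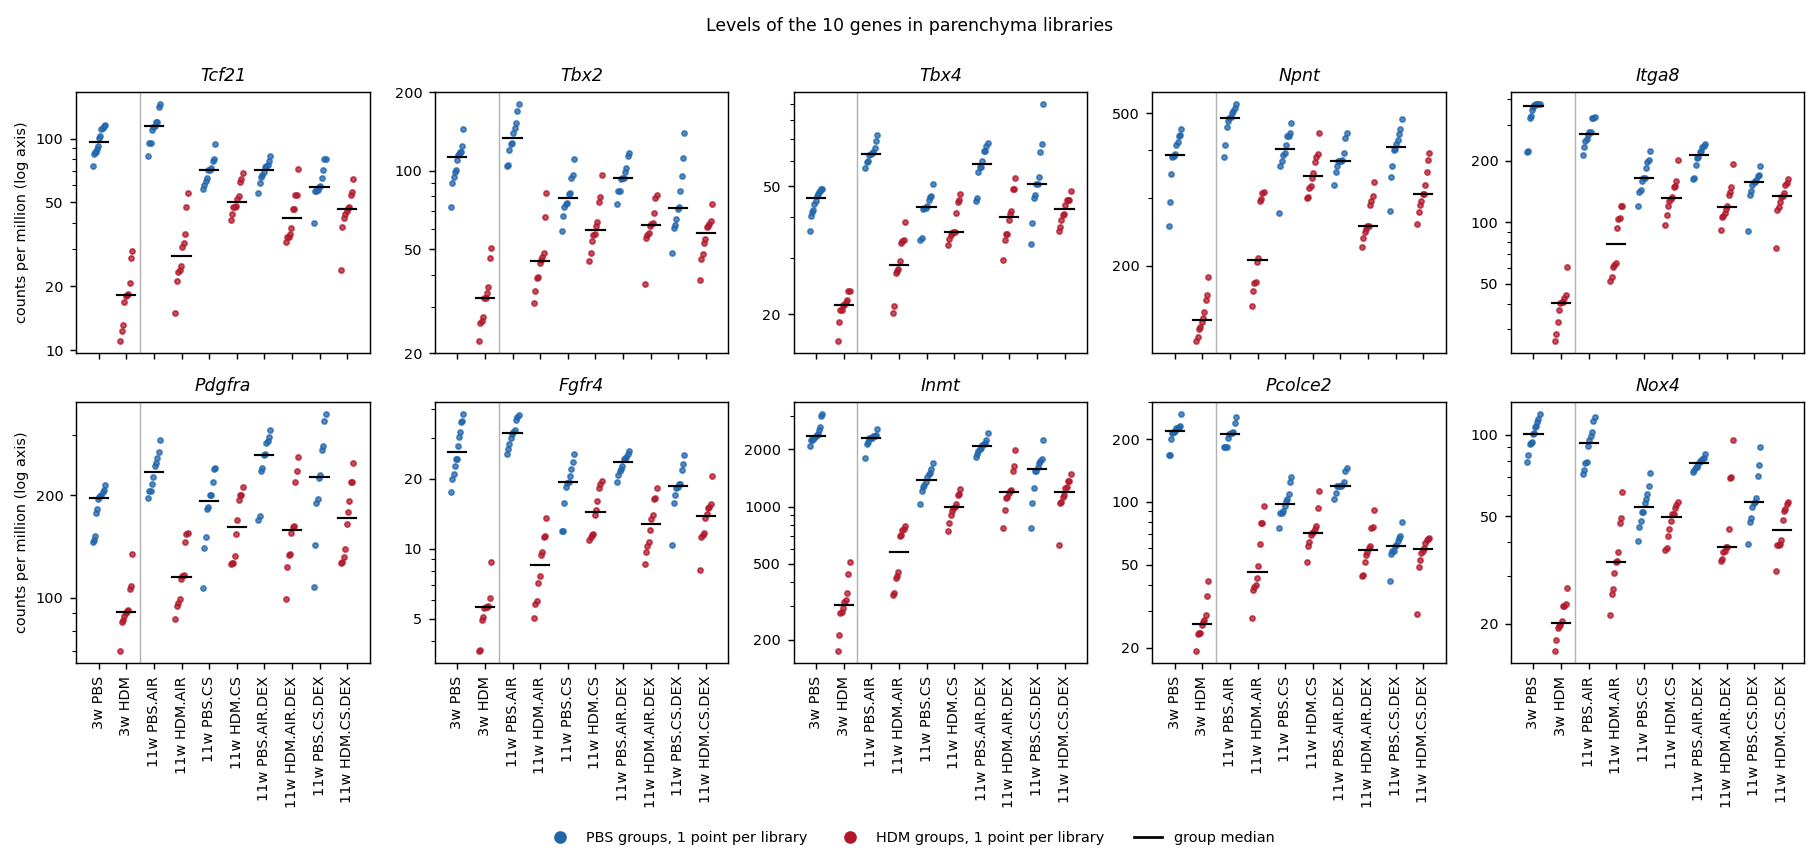
Levels of the 10 genes in parenchyma, in CPM on log axes, with 1 point per library, blue for PBS groups and red for HDM groups, and a bar at each group's median. In each of the 10 genes the median was lowest in HDM mice at 3 weeks and next lowest in HDM.AIR mice at 11 weeks.

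At 3 weeks, the time that served to choose them, all 10 genes were lower in HDM-exposed mice than in PBS controls in both compartments. In parenchyma, Tcf21 had 74.5 to 115.6 CPM (median 96.5) in PBS mice and 11 to 29.4 (18.2) in HDM mice. Itga8 went from 220.0 to 380.0 CPM (370.1) down to 26.2 to 60.2 (40.4), and Inmt from 2079 to 3074 CPM (2348) down to 174.2 to 511 (306). For Pcolce2 the ranges were 167.8 to 265 CPM (218) and 19.2 to 41.6 (26.1), and for Nox4 79.2 to 119.9 CPM (100.9) and 15.8 to 27 (20). The groups did not overlap in any of these 5 genes. All 10 genes of parenchyma had every HDM library below every PBS library, which held for 19.4% of all tested genes, and the log2FC ran from -3.19 (Itga8) to -1.03 (Pdgfra). In airways 8 of 10 genes did not overlap, against 9.16% of tested genes, with log2FC from -3.29 (Inmt) to -0.85 (Pdgfra), and the groups overlapped for Tbx4 and Npnt. Without the 3 libraries that stood apart the airway values ran from -3.34 to -0.90. Markers of other cells also differed at 3 weeks, and their part in these values was not tested. In parenchyma the summed level of 10 alveolar type I genes was 8406 to 11164 CPM in PBS mice and 3544 to 4387 in HDM mice, that of 10 endothelial genes 1972 to 2834 and 852 to 1247, and that of 12 leukocyte genes 6569 to 11715 and 18391 to 25121.

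The question at 11 weeks was whether long exposure to HDM showed the same direction as at the earlier time. The 10 genes were chosen with earlier results of these data known, so libraries at 11 weeks cannot be taken as independent of the choice. In parenchyma of mice kept in air, all 10 genes were lower with HDM, by 1.94-fold (Pdgfra) to 3.99-fold (Inmt), and every HDM.AIR library lay below every PBS.AIR library for each of them. A lower level at an adjusted p under 0.05 (limma-voom with Benjamini-Hochberg adjustment over 18250 genes) was found for 10 of 10 genes against 26.9% of all tested genes. A log2FC of -1 or lower besides was found for 9 of 10 against 6.12%, with Pdgfra the exception. Groups without overlap were found for 10 of 10 against 11.1%. Without the libraries that stood apart, the log2FC of the 10 genes ran from -2.05 to -0.99, against -1.99 to -0.96 with them.

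Among the transcription factors, Tcf21 (GENCODE M21 on GRCm38, chr10:22817281-22820174, minus strand) had 82.5 to 146.3 CPM in PBS.AIR parenchyma with a median of 114.4, and 14.9 to 55.1 with a median of 27.8 in HDM.AIR. The groups did not overlap, and Tcf21 fell by 1.89 on the log2 scale (SE 0.18, limma adj. p = 7.7e-19). Tbx2 (chr11:85832551-85841948, plus) had 104.6 to 180.96 CPM (median 133.5) against 31.2 to 82.2 (44.9), a log2FC of -1.50 (SE 0.19, limma adj. p = 2.3e-12). Its neighbour on the chromosome, Tbx4 (chr11:85886422-85916097, plus), had 56.7 to 72.1 CPM (63) against 20.2 to 38.8 (28.5), a log2FC of -1.08 (SE 0.13, limma adj. p = 2.2e-12). All 3 factors were thus lower with HDM beyond the spread of the libraries, and the fold was largest for Tcf21 (3.71-fold).

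The ligand Npnt (chr3:132881745-132950291, minus) had 384 to 529.7 CPM (median 487) in PBS.AIR parenchyma and 156.6 to 311 (206.6) in HDM.AIR. It fell by 1.02 on the log2 scale (SE 0.15, limma adj. p = 3.3e-09). Its integrin Itga8 (chr2:12106632-12301922, minus) had 214 to 328 CPM (270.3) against 51.7 to 120.2 (78.5), a log2FC of -1.71 (SE 0.15, limma adj. p = 3.6e-21). Ligand and receptor were both lower, and neither pair of groups overlapped.

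Of the receptors, Pdgfra (chr5:75152292-75198215, plus) had 196.4 to 289.9 CPM (median 235) in PBS.AIR parenchyma and 86.8 to 154.5 (114.7) in HDM.AIR, a log2FC of -0.96 (SE 0.15, limma adj. p = 2.4e-08). Fgfr4 (chr13:55152640-55168759, plus) had 25.5 to 37.7 CPM (31.4) against 5.03 to 13.6 (8.55), a log2FC of -1.84 (SE 0.19, limma adj. p = 5.6e-16). The change of Pdgfra was the smallest of the 10, and that of Fgfr4 was among the 4 largest.

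Inmt (chr6:55170626-55175043, minus) had 1798 to 2557 CPM (median 2294) in PBS.AIR parenchyma and 344 to 794 (575) in HDM.AIR, a log2FC of -1.99 (SE 0.15, limma adj. p = 2.5e-24). Pcolce2 (chr9:95637601-95698096, plus) had 182.7 to 256 CPM (212) against 27.6 to 95.1 (46.1), a log2FC of -1.96 (SE 0.16, limma adj. p = 2.0e-22). Both were lowered nearly 4-fold, with no overlap. Nox4 (chr7:87246096-87398710, plus) had 71.9 to 116.7 CPM (93) against 21.5 to 61.4 (33.9), a log2FC of -1.31 (SE 0.15, limma adj. p = 1.2e-13), again with no overlap. Whether the counting used strand is not stated, and genes of the other strand overlap Tcf21 (Gm10824), Npnt (Gm23196), Itga8 (E030013I19Rik), Pdgfra (Gm42802, Gm42803) and Pcolce2 (Gm16126, Gm16127, Itpa-ps2), while Gm37701 and Mir7025 overlap Itga8 and Pdgfra on the same strand, so some counts of these 5 genes could belong to them.

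In airways of mice kept in air the same comparison gave smaller changes. In all, 7 genes were lower at an adjusted p under 0.05 by limma, against 29.8% of tested genes, 4 of them with a log2FC of -1 or lower against 8.54%. Inmt and Pcolce2 were the 2 whose groups did not overlap, against 6.03% of tested genes. Pcolce2 had 84.3 to 180.8 CPM (median 132.7) in PBS.AIR airways and 22.2 to 64 (40.8) in HDM.AIR, a log2FC of -1.75 (SE 0.16, limma adj. p = 2.3e-19). Inmt had 742 to 1969 CPM (1423) against 367 to 610.0 (483), a log2FC of -1.38 (SE 0.15, limma adj. p = 3.0e-15). Every HDM library of these genes lay below every PBS library.

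Tcf21 in airways had 27.6 to 80 CPM (median 59.9) in PBS.AIR and 16.5 to 46.4 (25.9) in HDM.AIR, a log2FC of -1.06 (limma adj. p = 7.3e-08). Itga8 had 68.1 to 220.2 CPM (174.9) against 52.1 to 104.1 (71.3), a log2FC of -1.05 (limma adj. p = 1.2e-10). The ranges of both overlapped, with 6 of 10 HDM libraries of Tcf21 and 4 of 10 of Itga8 below all PBS libraries. Smaller decreases that passed were those of Fgfr4 (log2FC -0.77, limma adj. p = 0.0013), Nox4 (-0.74, 1.3e-05) and Tbx2 (-0.61, 0.0025). Tbx4 (log2FC -0.22, 95% interval -0.49 to 0.05, normal, from the SE), Pdgfra (-0.26, -0.56 to 0.03) and Npnt (-0.10, -0.39 to 0.18) did not pass, with limma adj. p = 0.16, 0.12 and 0.56. Without the libraries that stood apart the airway values ran from -1.91 to -0.32 in place of -1.75 to -0.10. Tbx4 (-0.37, limma adj. p = 0.014), Pdgfra (-0.39, 0.025) and Npnt (-0.32, 0.047) then passed too. The count of 7 thus depended on those libraries, and with all libraries kept it also changed with the test and with sample quality weights.

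**Figure D2:**
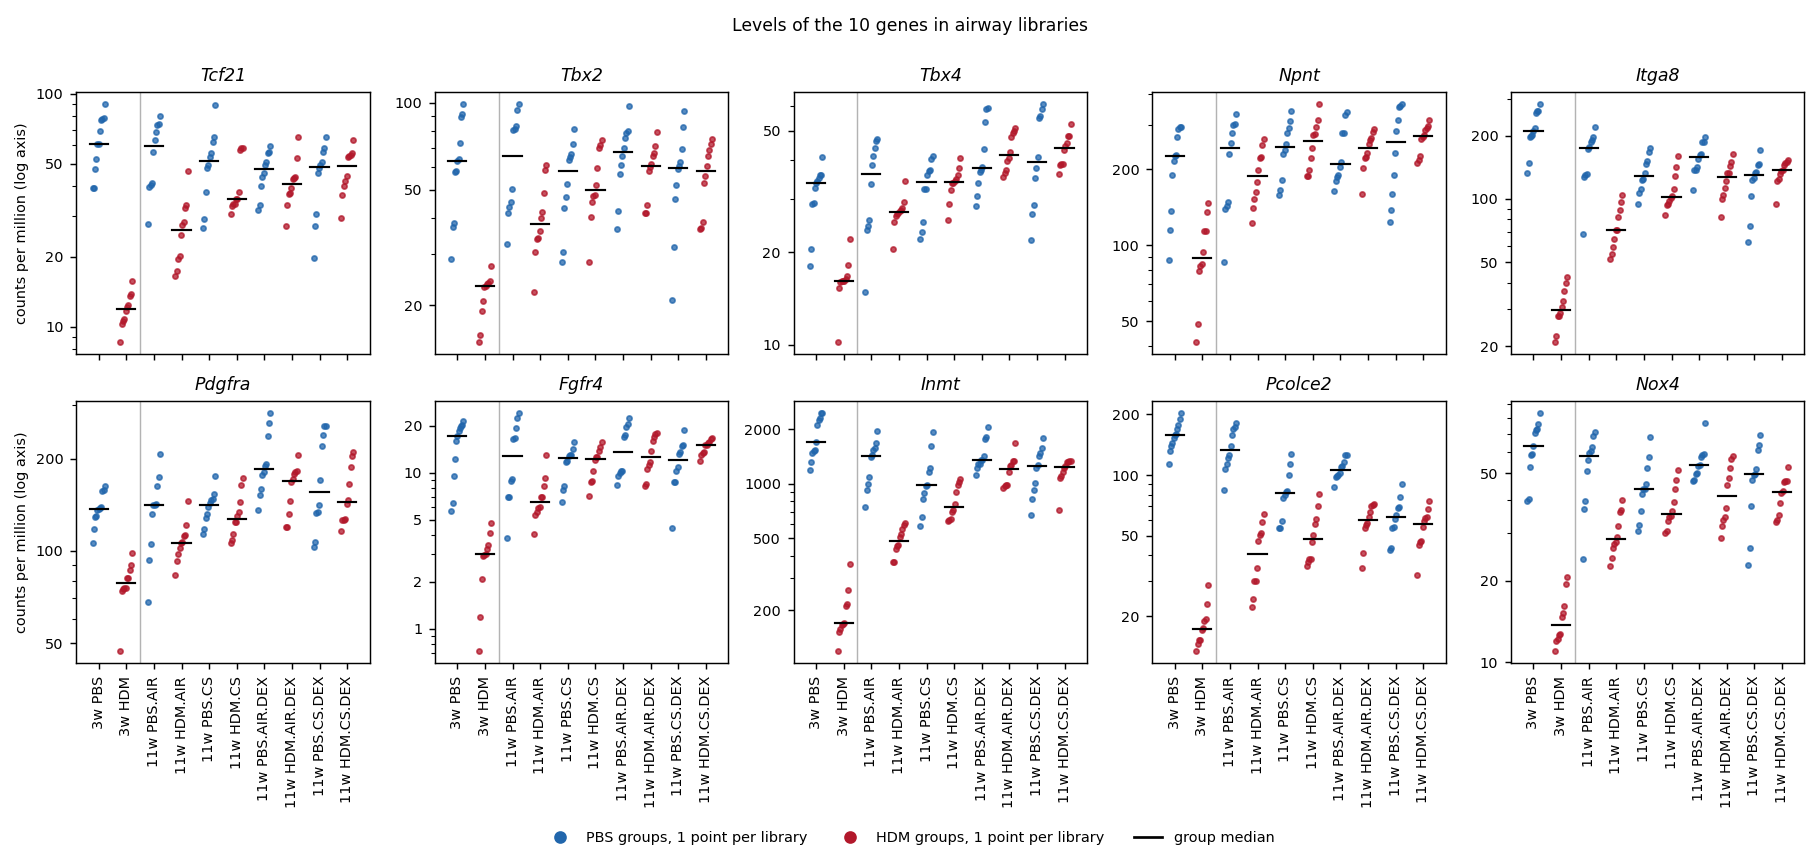
Levels of the 10 genes in airway libraries, in CPM on log axes, drawn as for parenchyma. PBS.AIR airways spread widely (Inmt from 742 to 1969 CPM), and the HDM.AIR groups of Inmt and Pcolce2 lay wholly below them.

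Other genes of the tissue moved in the same comparisons. Of 20 other alveolar fibroblast genes, 16 were lower and 3 higher in HDM.AIR parenchyma, with a median log2FC of -0.80 against 0.05 over all tested genes. Slc7a10 (an amino acid transporter, log2FC -2.94, limma adj. p = 1.8e-21), Scn3a (a sodium channel, -2.14, 5.8e-15) and Fgf10 (a growth factor for epithelium, -0.82, 8.0e-14) were lower, and Lpl (lipoprotein lipase, 1.55, 2.0e-14) was higher. In airways 11 of the 20 were lower and 5 higher, with a median of -0.42 against 0.00 over all genes. Most of the list was thus lower like the 10 genes, while the lipid gene Lpl was higher.

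Of the 12 genes of matrix-producing fibroblasts, 9 were higher and 2 lower in HDM.AIR parenchyma, with a median log2FC of 1.03. Sfrp1 (a secreted Wnt modulator, log2FC 3.22, limma adj. p = 1.7e-27), Timp1 (a metalloproteinase inhibitor, 3.90, 1.0e-13), Col3a1 (1.42, 1.9e-11) and Col1a1 (1.18, 1.1e-09), which encode fibrillar collagens, were higher. Of 16 adventitial fibroblast genes, 3 were lower and 4 higher (median 0.14). Among them Igfbp6, which binds insulin-like growth factors (log2FC -1.94, limma adj. p = 3.2e-18), Dpp4 (-1.06, 6.0e-14) and Clec3b (-1.19, 1.6e-07) were lower, and the cytokine gene Il33 (1.45, 4.9e-11) was higher. Pericyte genes were lower in 9 of 10 and higher in none (median -1.05), led by the channel gene Trpc6 (log2FC -1.75, limma adj. p = 2.6e-22). Of 11 airway-side fibroblast and myofibroblast genes 3 were lower and 2 higher (median -0.20), with the smooth muscle actin gene Acta2 at 1.11 (limma adj. p = 2.7e-06). The counts thus differed between fibroblast lists, and some genes, such as Fgf10, Postn and Acta2, stand in more than 1 list. Of all tested genes 26.9% were lower in this comparison. The 3 of 16 adventitial and 3 of 11 airway-side genes that were lower were near that share or below it. The share of all genes that was higher is not given here.

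Partners of the receptors and enzymes were also listed. Of 15 genes of the PDGF and FGF pathways, 10 were lower and 1 higher in HDM.AIR parenchyma (median log2FC -0.75). The ligands Fgf1 (-1.41, limma adj. p = 9.2e-23) and Fgf7 (-1.22, 1.0e-19) and the receptor Fgfr3 (-1.05, 8.6e-21) were lower, and the PDGF receptor ligand Pdgfc (1.29, 1.1e-16) was higher. Of 14 partners of Itga8, Nox4 and Pcolce2 that were tested (15 listed), 5 were lower and 6 higher (median 0.21). Cyba, the partner subunit of Nox4 (1.79, limma adj. p = 5.0e-27), and Cybb, the phagocyte oxidase (2.25, 3.1e-22), were higher, while the proteinase gene Tll1 (-1.49, 3.7e-16) and the matrix gene Vtn (-1.82, 5.1e-15) were lower. Of 13 T-box, forkhead and basic helix-loop-helix relatives, 7 were lower and 1 higher (median -0.91), with Foxf1 (-1.87, 8.8e-18), Tbx3 (-1.69, 5.1e-15) and Tcf12, the partner of Tcf21 (-0.33, 5.6e-14), lower and Msc (2.64, 1.6e-14) higher. In airways the same 3 lists had 10 lower and 2 higher of 15, 3 lower and 6 higher of 14, and 9 lower and 2 higher of 13.

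Markers of other cells moved with HDM as well. In parenchyma at 11 weeks the summed level of 10 alveolar type I genes was 10118 to 11654 CPM in PBS.AIR and 3621 to 6295 in HDM.AIR, with 9 of 10 lower. The 10 endothelial genes summed to 3185 to 3986 CPM and 814 to 2243, with 10 of 10 lower. The 12 leukocyte genes summed to 6556 to 10515 CPM and 13427 to 22216, with 11 of 12 higher. The 10 fibroblast genes summed to 3389 to 4341 and 802 to 1632. None of these sums overlapped between the groups, no defining gene of these 3 cell types (Ager and Hopx, Pecam1 and Cdh5, Ptprc and Cd3e) was at 0 in any group, and the part of cell makeup in the changes of the 10 genes was not tested. Of the other lists in parenchyma, 1 of 10 alveolar type II genes was lower and 5 higher, 1 of 8 smooth muscle genes was lower and 3 higher, 4 of 8 ciliated and club cell genes were lower and 2 higher, 3 of 7 cartilage genes were higher and 3 of 6 mesothelial and 1 of 7 adipose genes were lower.

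In airways the alveolar type I sum was 2368 to 7050.1 CPM in PBS.AIR and 2966 to 5881 in HDM.AIR, the endothelial sum 846 to 2532 and 851 to 1484, and the leukocyte sum 4114 to 8439 and 11582 to 18032. The first 2 ranges overlapped. All 8 cardiac muscle genes, all 8 smooth muscle genes, all 8 ciliated and club cell genes, all 7 adipose genes, 6 of 7 tested cartilage genes and 4 of 6 mesothelial genes were lower in HDM.AIR airways. The cardiac sum was 357 to 3859 CPM in PBS.AIR airways and 41.5 to 629 in HDM.AIR. The adipose sum was 174.6 to 930.3 and 8.63 to 106.3. In parenchyma those 2 sums were 32.4 to 51.4 and 12.9 to 23.3 CPM in PBS.AIR, which is lower than in airway, and the part of such tissue in the airway values of the 10 genes was not tested.

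**Figure D3:**
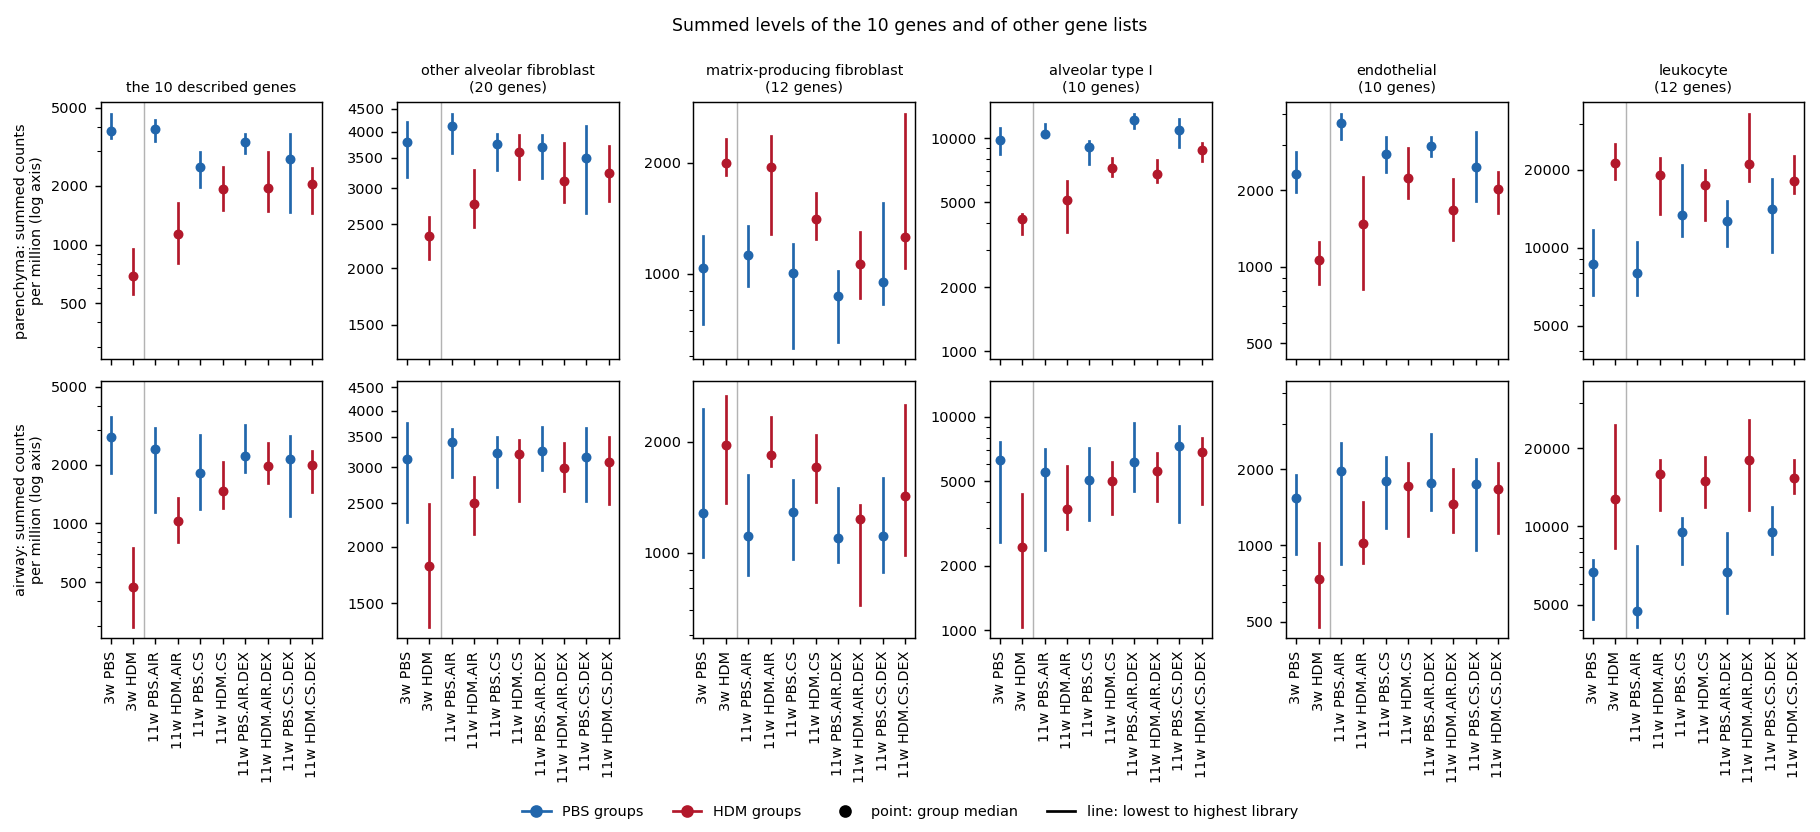
Summed CPM (log axes) of the 10 described genes and of 5 other gene lists in each group, with parenchyma above and airway below, a point at the group median and a line from the lowest to the highest library. In parenchyma the 10 genes, the alveolar type I list and the endothelial list were lower, and the leukocyte list was higher, in HDM.AIR than in PBS.AIR mice.

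Airway and parenchyma of PBS.AIR mice were compared to see where the 10 genes were expressed. All 10 were lower in airway than in parenchyma by limma at an adjusted p under 0.05, against 30.1% of tested genes, by 1.53-fold (Pcolce2) to 2.58-fold (Fgfr4). For 7 of 10 every airway library lay below every parenchyma library, against 7.07% of tested genes, while 9 of 10 airway libraries did so for Itga8, Pdgfra and Inmt. The median of Fgfr4 was 12.7 CPM in airway and 31.4 in parenchyma, a log2FC of -1.37 (SE 0.18, limma adj. p = 1.4e-11), and that of Pcolce2 was 132.7 and 212, a log2FC of -0.61 (SE 0.16, 7.8e-04). Of the 20 other alveolar fibroblast genes, 12 were lower and 5 higher in airway, and all 10 alveolar type I genes and all 10 endothelial genes were lower. Without the libraries that stood apart the 10 genes ran from -1.23 to -0.56 in place of -1.37 to -0.61. In turn, 10 of 16 adventitial genes and 8 of 11 airway-side genes were higher in airway.

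The effect of HDM differed between the compartments for 9 of the 10 genes, with a smaller decrease in airway (an interaction higher at an adjusted p under 0.05 by limma, against 12.7% of tested genes). The difference in log2FC ran from 0.57 (Nox4, limma adj. p = 0.038) to 1.07 (Fgfr4, 0.0032). It was 0.92 for Npnt (4.6e-04) and 0.86 for Tbx4 (2.8e-04). Pcolce2 did not pass, with a difference of 0.21 (95% interval -0.24 to 0.65, limma adj. p = 0.54). Leaving out the libraries that stood apart, the differences ran from 0.03 (Pcolce2) to 0.98, and Nox4 did not pass (0.48, limma adj. p = 0.099). For Inmt and Nox4 the call was lost in edgeR (adj. p = 0.07 and 0.084) and DESeq2 (0.064 and 0.08), and in limma with no filter on low counts (0.051 and 0.063). With each pair of consecutive library numbers as a replicate block, a fit added after seeing the data, both genes passed (limma adj. p = 0.0039 and 0.0052). The labels do not state that such a pair is 1 mouse. All 10 alveolar type I genes and 6 of 10 endothelial genes had the same kind of difference, and their part was not tested.

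**Figure D4:**
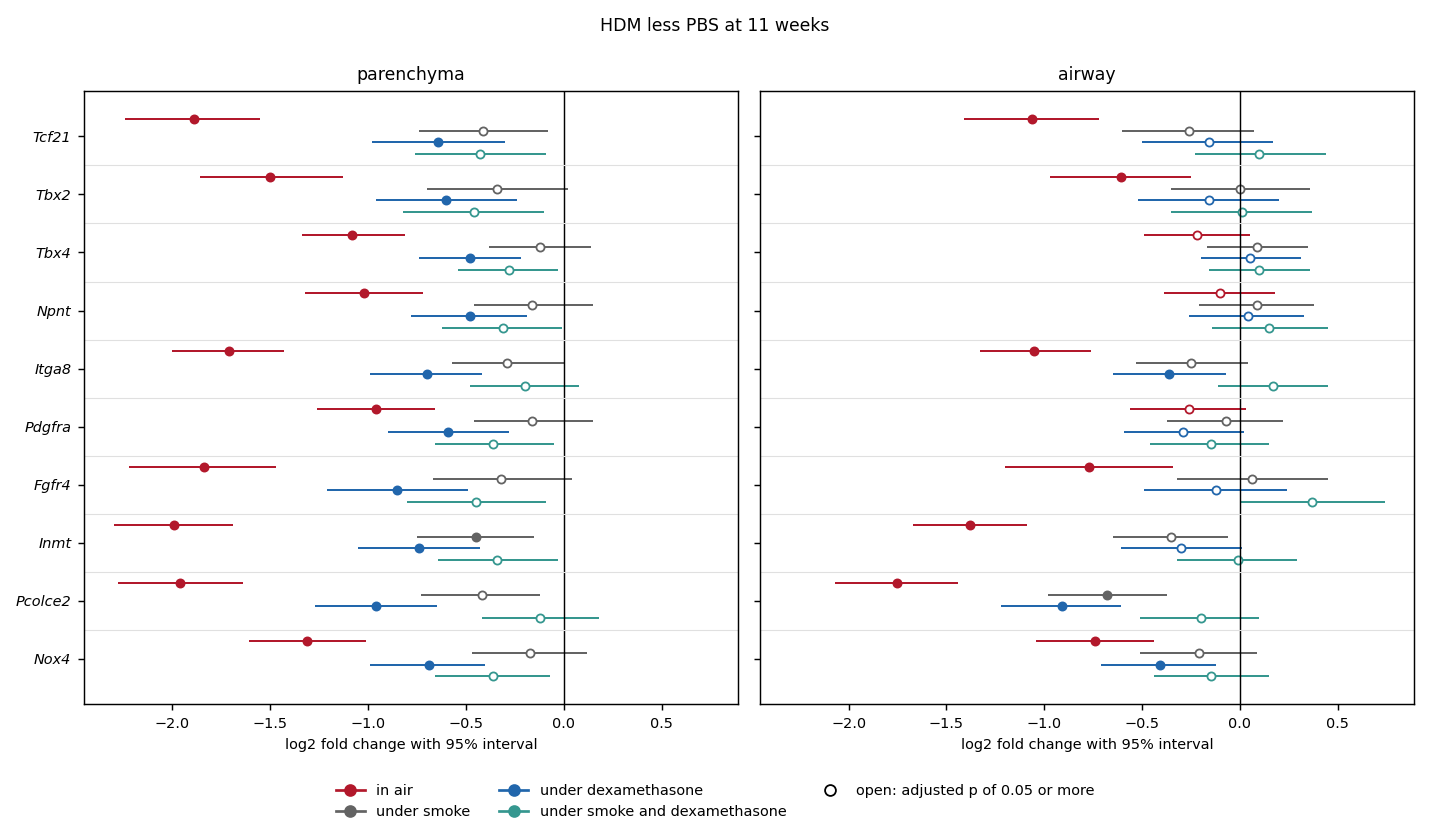
Log2 fold change of each of the 10 genes between HDM and PBS mice, with 95% intervals, by treatment background at 11 weeks in parenchyma and airway (red in air, grey under smoke, blue under dexamethasone, green under both), open points having an adjusted p of 0.05 or more. In parenchyma the values in air ran from -1.99 to -0.96 and those under smoke from -0.45 to -0.12.

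Cigarette smoke was given to PBS mice and to HDM mice. Smoke alone lowered 8 of the 10 genes in parenchyma by limma at an adjusted p under 0.05, against 18.2% of tested genes, and for Tbx4, Inmt and Pcolce2 the groups did not overlap, 3 of 10 against 3.28%. Pcolce2 had 75 to 131.5 CPM (median 98.1) in PBS.CS, below the 182.7 to 256 of PBS.AIR, a log2FC of -1.06 (SE 0.16, limma adj. p = 2.6e-08). Inmt had 1027 to 1694 CPM (1384), a log2FC of -0.71 (SE 0.16, 2.0e-04), and Tbx4 34.1 to 50.8 CPM (43), a log2FC of -0.56 (SE 0.13, 2.6e-04). For Tcf21, Tbx2, Itga8, Fgfr4 and Nox4, 9 of 10 PBS.CS libraries lay below all PBS.AIR libraries, with log2FC from -0.77 (Fgfr4) to -0.66 (Tcf21). Npnt (log2FC -0.25, limma adj. p = 0.23) and Pdgfra (-0.35, 0.066) did not pass. In airways Pcolce2 was the 1 gene that passed, against 6.03% of tested genes, with 54.4 to 127.2 CPM (81.2) in PBS.CS and a log2FC of -0.74 (SE 0.16, limma adj. p = 2.3e-04).

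With smoke alone in parenchyma, 9 of the 20 other alveolar fibroblast genes were lower and 3 higher (median log2FC -0.30 against 0.00 over all genes). Fgf10 (-0.46, limma adj. p = 1.1e-05) and Slc7a10 (-0.88, 1.7e-05) were lower, and the lipid genes Plin2 (1.09, 6.8e-14) and Lpl (1.08, 6.6e-08) were higher. In the same mice 1 of 10 alveolar type I genes and 6 of 10 endothelial genes were lower, and 7 of 12 leukocyte genes were higher. The alveolar type I sum was 7532 to 9701 CPM, the endothelial sum 2359 to 3237 and the leukocyte sum 11038 to 20902 in PBS.CS. The alveolar type I sum lay wholly below that given for PBS.AIR, although only 1 of its 10 genes passed as lower. The leukocyte sum lay wholly above that of PBS.AIR, and the endothelial ranges overlapped. The part of these cells was not tested.

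In HDM mice smoke went with higher levels. HDM.CS parenchyma had more of 9 of the 10 genes than HDM.AIR by limma at an adjusted p under 0.05, against 10.0% of tested genes. Inmt had 746 to 1243 CPM (median 989.5) in HDM.CS against 344 to 794 in HDM.AIR, a log2FC of 0.84 (SE 0.15, limma adj. p = 2.5e-06), with 9 of 10 HDM.CS libraries above all HDM.AIR libraries. Tcf21 had 41.4 to 68.8 CPM (49.9) against 14.9 to 55.1, a log2FC of 0.83 (SE 0.18, 1.1e-04), and Itga8 97.4 to 201.9 CPM (131.7) against 51.7 to 120.2, a log2FC of 0.74 (SE 0.14, 1.9e-05). The ranges overlapped for all 3. Npnt had 300.2 to 444 CPM (344) against 156.6 to 311, a log2FC of 0.62 (SE 0.15, 9.0e-04). The others that passed were Fgfr4 (log2FC 0.76, limma adj. p = 0.0029), Pcolce2 (0.48, 0.015), Pdgfra (0.45, 0.02), Nox4 (0.41, 0.039) and Tbx4 (0.40, 0.021), and Tbx2 did not pass (0.41, 0.088). The call for Nox4 was lost in edgeR (adj. p = 0.077) and DESeq2 (0.072), and in limma with no filter on low counts (0.07).

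In airways smoke added to HDM raised 5 of 10 genes against 6.07% of tested genes. These were Fgfr4 (log2FC 0.73, limma adj. p = 0.011), Inmt (0.69, 1.6e-04), Tcf21 (0.65, 0.005), Itga8 (0.57, 0.0016) and Npnt (0.41, 0.043). The call for Npnt was lost with no filter on low counts (limma adj. p = 0.054), with both times in 1 fit (0.059) and with each compartment fitted alone (0.14). For Inmt all 10 HDM.CS airway libraries, at 624 to 1063 CPM, lay above all HDM.AIR libraries, at 367 to 610.0. In the same parenchyma comparison, 11 of 20 other alveolar fibroblast genes were higher and 1 lower, with Slc7a10 at 1.38 (limma adj. p = 3.3e-05), and 7 of 12 matrix genes were lower and 1 higher, with Sfrp1 at -1.21 (2.6e-09). Of the other cells, 8 of 10 alveolar type I genes and 8 of 10 endothelial genes were higher too, and 5 of 12 leukocyte genes were lower. The alveolar type I sum of HDM.CS parenchyma, 6616 to 8024 CPM, lay above that of HDM.AIR, and the endothelial sum was 1863 to 2932 and the leukocyte sum 12763 to 19863. Their part was not tested.

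The effect of HDM was also measured under smoke. In HDM.CS against PBS.CS parenchyma only Inmt was lower by limma at an adjusted p under 0.05, against 2.42% of tested genes, with a log2FC of -0.45 (SE 0.15, limma adj. p = 0.044), and the other 9 genes ran from -0.42 (Pcolce2) to -0.12 (Tbx4). All 10 estimates were thus below 0, and 4 had an unadjusted p under 0.05. The call for Inmt was lost with no filter on low counts (limma adj. p = 0.055), while 3 genes passed with each compartment fitted alone and 5 with sample quality weights. In airways Pcolce2 was the 1 lower gene, against 15.6% of tested genes, with 35.6 to 80.3 CPM (median 48.5) in HDM.CS against 54.4 to 127.2 and a log2FC of -0.68 (SE 0.16, limma adj. p = 2.4e-04). The difference between the HDM effect under smoke and in air was itself tested. In parenchyma it was above 0 for 10 of 10 genes against 17.3% of tested genes, from 0.80 (Pdgfra, limma adj. p = 0.0017) to 1.55 (Inmt, 2.4e-09). In airways it passed for 5 genes against 7.72%, namely Pcolce2 (1.08, limma adj. p = 1.5e-04), Inmt (1.03, 1.5e-04), Fgfr4 (0.84, 0.032), Tcf21 (0.80, 0.013) and Itga8 (0.80, 0.0021). Fgfr4 did not pass when each compartment was fitted alone (limma adj. p = 0.085). The comparisons of HDM in air, smoke alone and smoke added to HDM share the PBS.AIR or HDM.AIR libraries, so they are not independent of each other. With the libraries that stood apart left out, smoke alone gave values from -1.07 to -0.26 in parenchyma and from -0.82 to 0.08 in airways, smoke added to HDM from 0.38 to 0.84 and from 0.28 to 0.71, and the difference of the HDM effects from 0.80 to 1.56 and from 0.30 to 1.23. Passing besides were then Pdgfra with smoke alone (limma adj. p = 0.049) and Pcolce2 with HDM under smoke (0.029) in parenchyma, and in airways Inmt with smoke alone (0.041) and with HDM under smoke (0.032) and the difference for Nox4 (0.014) and Tbx2 (0.031).

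Dexamethasone was given in week 11. In parenchyma of HDM mice it raised 7 of 10 genes by limma at an adjusted p under 0.05, against 12.2% of tested genes, while Tbx2 (log2FC 0.39, limma adj. p = 0.11), Npnt (0.22, 0.28) and Pcolce2 (0.22, 0.32) did not pass. Inmt had 771 to 1979 CPM (median 1193) in HDM.AIR.DEX against 344 to 794 in HDM.AIR, a log2FC of 1.13 (SE 0.15, limma adj. p = 1.4e-10), with 9 of 10 libraries above all HDM.AIR libraries. Itga8 had 91.9 to 191.8 CPM (118.4), a log2FC of 0.62 (SE 0.14, 2.3e-04), and Tcf21 32.3 to 71.5 CPM (42.1), a log2FC of 0.57 (SE 0.18, 0.0092). The ranges of treated and untreated HDM mice overlapped for these 3 genes. The others that passed were Fgfr4 (log2FC 0.56, limma adj. p = 0.037), Tbx4 (0.46, 0.0053), Pdgfra (0.45, 0.015) and Nox4 (0.41, 0.036). In limma the call for Fgfr4 was lost with no filter on low counts (adj. p = 0.052) and with the filter of 10 CPM in 9 libraries (0.056), and that for Nox4 with no filter (0.059) and with sample quality weights (0.061).

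In airways of HDM mice dexamethasone raised 9 of 10 genes against 12.5% of tested genes, Npnt being the exception (log2FC 0.32, limma adj. p = 0.087). Inmt had 952 to 1684 CPM (median 1208) in HDM.AIR.DEX, wholly above the 367 to 610.0 of HDM.AIR, a log2FC of 1.26 (SE 0.15, limma adj. p = 1.5e-12). Tbx4 had 35.3 to 51 CPM (41.6) against 20.6 to 34.3, a log2FC of 0.63 (SE 0.14, 9.2e-05), and again the groups did not overlap. Itga8 had 82.2 to 163.2 CPM (126.99) against 52.1 to 104.1, a log2FC of 0.73 (SE 0.14, 1.4e-05). The remaining 6 ran from 0.45 (Nox4, limma adj. p = 0.018) to 0.88 (Fgfr4, 7.6e-04), and Tbx2 did not pass with each compartment fitted alone (0.051).

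The other gene lists in dexamethasone-treated HDM parenchyma went partly the same way. In that list 9 of 20 other alveolar fibroblast genes were higher and 1 lower, with Limch1 (log2FC 0.70, limma adj. p = 2.5e-05) and the lipid regulator Pparg (0.78, 2.3e-04) higher. By contrast 8 of 12 matrix genes were lower and none higher, with Timp1 (-2.42, 9.7e-09), Col3a1 (-1.25, 1.7e-08) and Col1a2 (-0.93, 2.2e-08). Among adventitial genes 7 of 16 were lower and 2 higher, with Igfbp6 at 1.52 (1.2e-11). Beside them 5 of 10 alveolar type I, 7 of 10 alveolar type II and 3 of 10 endothelial genes were higher, and 8 of 12 leukocyte genes were lower. The sums were 6224 to 7897 CPM (type I), 1277 to 2216 (endothelial) and 18037 to 32736 (leukocyte). Both ends of the leukocyte range lay above those given for HDM.AIR, although 8 of its 12 genes were lower. The part of these cells was not tested.

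In PBS mice dexamethasone did not raise the genes in parenchyma. There 4 of 10 were lower against 12.0% of tested genes. Pcolce2 had 103.3 to 145.4 CPM (median 119.3), wholly below the 182.7 to 256 of PBS.AIR, a log2FC of -0.78 (SE 0.16, limma adj. p = 9.6e-05), and Tcf21 had 55.5 to 82.3 CPM (71.3), also without overlap, a log2FC of -0.68 (SE 0.17, 0.0014). Tbx2 (-0.51, limma adj. p = 0.034) and Fgfr4 (-0.43, 0.035) also passed, and the call for Fgfr4 was lost in edgeR (adj. p = 0.07) and DESeq2 (0.057). Inmt, at 1814 to 2424 CPM (2075), did not pass (log2FC -0.12, 95% interval -0.44 to 0.21, limma adj. p = 0.68). In airways of PBS mice 2 genes were higher against 8.03% of tested genes, Pdgfra (0.57, limma adj. p = 0.0056) and Tbx4 (0.36, 0.049). The call for Tbx4 was lost under every alternative, and that for Pdgfra with sample quality weights (0.43, limma adj. p = 0.054).

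**Figure D5:**
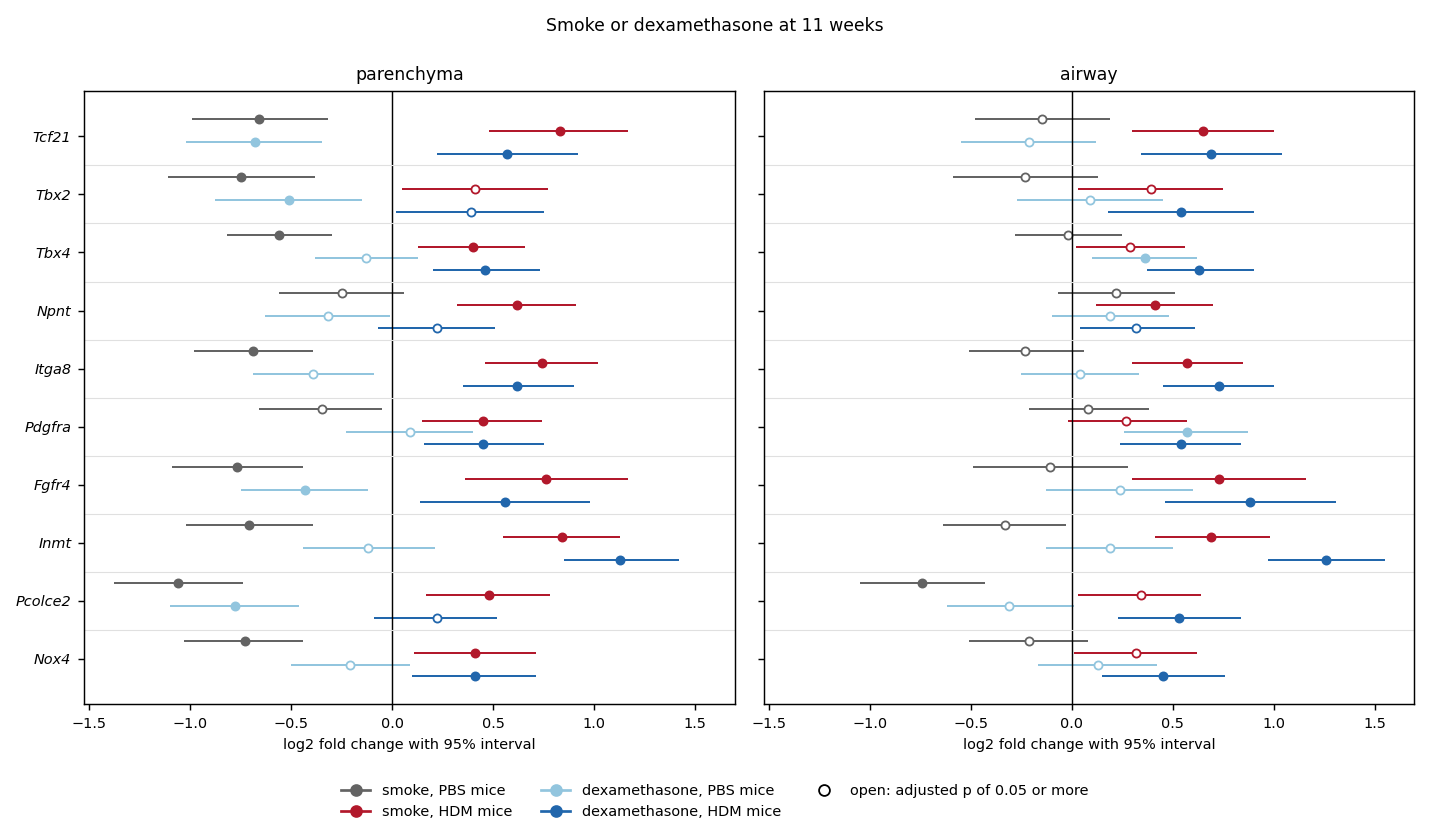
Log2 fold change with 95% interval of each of the 10 genes for smoke and for dexamethasone, each in PBS mice and in HDM mice, at 11 weeks; filled points have an adjusted p under 0.05. In parenchyma smoke gave values from -1.06 to -0.25 in PBS mice and from 0.40 to 0.84 in HDM mice.

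Under dexamethasone HDM still lowered all 10 genes in parenchyma, against 19.6% of tested genes, with log2FC from -0.96 (Pcolce2, SE 0.16, limma adj. p = 1.0e-07) to -0.48 (Tbx4, SE 0.13, 0.0014, and Npnt, SE 0.15, 0.0059). Pcolce2 had 43.9 to 91.7 CPM (median 58.8) in HDM.AIR.DEX, below the 103.3 to 145.4 of PBS.AIR.DEX. Without a filter on low counts the median log2FC of all tested genes in this comparison was 0.17 in place of 0.03, and with the DESeq2 size factors it was 0.01. The 10 genes stayed lower under each of these alternatives. In airways Pcolce2 (log2FC -0.91, limma adj. p = 2.8e-07), Nox4 (-0.41, 0.016) and Itga8 (-0.36, 0.031) were lower, 3 of 10 against 26.1% of tested genes, and Itga8 did not pass with sample quality weights (-0.28, limma adj. p = 0.075).

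The HDM effect was smaller with dexamethasone than without it. In parenchyma the difference passed for 8 genes against 6.02% of tested genes, from 0.59 (Tbx4, limma adj. p = 0.024) to 1.25 (Inmt, 3.2e-05, and Tcf21, 2.2e-04), and not for Npnt (0.54, 0.085) and Pdgfra (0.37, 0.28). Nox4 did not pass with no filter on low counts (limma adj. p = 0.051). In airways it passed for Inmt (1.08, limma adj. p = 3.5e-04), Tcf21 (0.90, 0.015), Pcolce2 (0.84, 0.011) and Itga8 (0.68, 0.029), 4 of 10 against 1.11%, and Itga8 did not pass with each compartment fitted alone (0.053). For Pcolce2 in parenchyma the difference of 1.00 (limma adj. p = 0.0013) came with a lower level in dexamethasone-treated PBS mice and no passing change in HDM mice, and for Inmt with a higher level in HDM mice and no passing change in PBS mice. These comparisons too share the PBS.AIR or HDM.AIR libraries with those above. With the libraries that stood apart left out, dexamethasone in HDM mice gave values from 0.19 to 1.24 in parenchyma and from 0.41 to 1.31 in airways, dexamethasone alone from -0.78 to 0.08 and from -0.40 to 0.44, HDM under dexamethasone from -0.98 to -0.52 and from -0.89 to 0.08, and the difference of the HDM effects from 0.39 to 1.35 and from 0.13 to 1.24. Passing besides were then Itga8 with dexamethasone alone in parenchyma (limma adj. p = 0.029), and in airways Npnt with dexamethasone in HDM mice (0.022) and the difference for Fgfr4 (0.034).

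In mice given smoke, dexamethasone changed few of the genes. In PBS.CS.DEX against PBS.CS parenchyma 1 of 10 passed, against 16.9% of tested genes in either direction, and this was Pcolce2, with 41.6 to 80 CPM (median 61.6) against 75 to 131.5, a log2FC of -0.72 (SE 0.16, limma adj. p = 3.1e-04). In airways 0 of 10 passed by limma, against 11.3%, with 2 at an unadjusted p under 0.05 and 1 each in edgeR and DESeq2, and Tbx4 passed without the libraries that stood apart (log2FC 0.42, limma adj. p = 0.016). In mice given HDM and smoke, dexamethasone raised Inmt in airways (log2FC 0.55, SE 0.15, limma adj. p = 0.0084), 1 of 10 against 9.30% in either direction. In parenchyma 0 of 10 passed by limma, against 7.86%, with 1 at an unadjusted p under 0.05 and 0 in edgeR and DESeq2. With smoke and dexamethasone together, HDM changed 0 of 10 genes in airways by limma, against 33.6%, with 0 at an unadjusted p under 0.05 and 0 in edgeR and DESeq2. In parenchyma it lowered 0 of 10 by limma against 9.09%, although all 10 estimates were below 0, from -0.46 (Tbx2) to -0.12 (Pcolce2), 8 had an unadjusted p under 0.05, and edgeR passed 1 and DESeq2 5.

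The order of the groups was not the same for Inmt and Pcolce2. In parenchyma Inmt stood at medians of 2294 CPM in PBS.AIR, 2075 in PBS.AIR.DEX, 1574 in PBS.CS.DEX, 1384 in PBS.CS, 1195 in HDM.CS.DEX, 1193 in HDM.AIR.DEX, 989.5 in HDM.CS and 575 in HDM.AIR. Pcolce2 stood at 212 in PBS.AIR, 119.3 in PBS.AIR.DEX, 98.1 in PBS.CS, 71.1 in HDM.CS, 61.6 in PBS.CS.DEX, 59.2 in HDM.CS.DEX, 58.8 in HDM.AIR.DEX and 46.1 in HDM.AIR. Neighbours such as HDM.CS.DEX and HDM.AIR.DEX did not differ beyond their ranges in either gene. In Pcolce2 the PBS.AIR libraries lay above all libraries of the other 7 groups of parenchyma at 11 weeks, whose highest value was 145.4 CPM. Inmt in PBS.AIR, at 1798 CPM or more, overlapped PBS.AIR.DEX, PBS.CS.DEX and HDM.AIR.DEX.

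The 10 genes also varied together. Over the 80 parenchyma libraries at 11 weeks the Spearman correlation between pairs of the 10 genes ran from 0.56 to 0.91 (median 0.80 over 45 pairs), and from 0.06 to 0.82 (median 0.59) after each group's mean was removed. In airways the ranges were 0.30 to 0.87 (median 0.70) and 0.26 to 0.85 (0.72). The points share libraries and groups, so these are descriptions. The genes most alike to Tcf21 over the parenchyma libraries were Pcdhac2 and Clec14a (rho of 0.92 each) and Tril (0.91). To Tbx2 they were Tril (0.90), Kif26a (0.89) and Wscd1 (0.89), and to Tbx4 Adgrf5, Stard13 and Tns1 (0.93 each). Npnt was most like Scube2 and Fam171a1 (0.90 each) and Adgrl3 (0.89), and Itga8 most like Tek (0.96), Sdc2 (0.96) and Prex2 (0.95). For Pdgfra they were Smurf2, Neo1 and Grk5 (0.92 each), and for Fgfr4 Specc1l (0.93), Reck (0.92) and Arap3 (0.92). Inmt was most like Sbds (0.93), Fxyd1 (0.93) and Hsd11b1 (0.92), the last an enzyme that regenerates active glucocorticoid. Pcolce2 was most like the secreted protein genes Chrdl1 and Efemp1 (0.94 each) and Tspan13 (0.92), and Nox4 most like Fgf7 (0.93), Fmo5 (0.93) and Trpc1 (0.92). Clec14a, Tek and Adgrf5 are known to be expressed in endothelium. Over the 80 airway libraries those most alike were Clec14a for Tcf21 (0.87), Sox18 and Cldn5 for Tbx2 (0.89 each), Limch1 and Pdzd2 for Tbx4 (0.88 each), Phldb2 and Fnbp1l for Npnt (0.91 each) and Pde5a for Itga8 (0.91). For the others they were Lipg for Pdgfra (0.87), Gucy1a1 and Pde8b for Fgfr4 (0.88 each), Fhl1 for Inmt (0.88), Lmntd1, Tmem47 and Cavin2 for Pcolce2 (0.89 each) and Cav1 for Nox4 (0.89). Endothelial genes were thus among the 3 most alike in airways for at least Tcf21 (Clec14a and Ramp2), Tbx2 (Sox18 and Cldn5), Npnt (Cdh5, 0.90) and Itga8 (Tek, 0.90). These airway genes were picked out after their values were seen, and others named here, such as Lipg, Cav1 and Cavin2, may be expressed in endothelium too. The part of endothelial cells in these correlations was not tested.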

How the data were processed

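Bulk RNA-seq had been made from airway and parenchyma of the mice described above. The authors aligned single reads to mm10 with STAR 2.5.1b and quantified genes with RSEM 1.2.31 and kallisto 0.44.0, and they deposited estimated counts, of which 20.3% of non-zero values were not whole and were rounded here. Which quantifier made the table, and whether it used strand, is not given in the sources used here. Of 43346 identifiers, 42462 were found in GENCODE M21 without regard to version and 23106 with the same version, and symbols and gene coordinates are from M21.

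Genes whose CPM reached that of 10 counts in a library of median depth in at least 9 libraries were kept. Libraries of each time (43 at 3 weeks, 160 at 11 weeks) were fitted as 1 model of group means with limma-voom 3.58.1 (R 4.3.3) after TMM scaling with edgeR 4.0.16, and p-values were adjusted by Benjamini-Hochberg over all genes tested. CPM were taken with TMM factors over all 203 libraries. Groups came from the sample labels. The 10 genes and all gene lists were chosen with earlier results of these data known. Named were the 10 genes, up to 4 genes with the smallest adjusted p of a described list, the first 2 markers of a cell type, and the 3 genes most alike to each of the 10. The fits were repeated with DESeq2 1.42.0 and the edgeR quasi-likelihood test, with another scaling, other filters, sample weights and other sets of libraries, and levels per length with transcript in place of exon length. Leaving out the libraries that stood apart was chosen after seeing the data. No 2 libraries of a group were the same within sampling noise (lowest mean chi-square per gene 8.49 over 931 pairs). Simulated data were put through limma-voom at both times, and through edgeR, DESeq2 and sample quality weights at 3 weeks alone. Changes were planted in the HDM parenchyma group of each time (HDM.AIR at 11 weeks), with libraries drawn independently. The simulation thus did not cover the differences between HDM effects or any pairing of libraries.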

Additional observations from a re-analysis of the deposited data

Results flagged for a closer look

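Of 180 sets of 10 libraries (1 gene in 1 group), 8 held a library whose gap to the next, divided by the range of the set, was above 0.466, the 95% critical value of Dixon's test, and chance gives this in about 1 in 20 sets. In 1 parenchyma library of HDM mice at 3 weeks Itga8 was at 60.2 CPM (next 44) and Fgfr4 at 8.8 (next 6.13), both the highest of the group. Pdgfra was lowest, at 47.1 CPM (next 73.9), in 1 airway library of HDM mice at 3 weeks. Inmt was at 1684 CPM (next 1328) in the highest HDM.AIR.DEX airway library and at 720.4 (next 1077) in the lowest HDM.CS.DEX airway library. In 1 HDM.CS.DEX parenchyma library Inmt, at 626 CPM (next 1045), and Pcolce2, at 29 (next 48.8), were both the lowest. Nox4 was at 76.5 CPM (next 59) in the highest PBS.AIR.DEX airway library.

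The effect of HDM differed between settings in 36 tests of the difference itself by limma, with all 10 genes tested in each comparison. Under smoke against air 10 of 10 passed in parenchyma against 17.3% of tested genes, and 5 in airways against 7.72%. With against without dexamethasone 8 passed in parenchyma against 6.02%, and 4 in airways against 1.11%. Between airway and parenchyma 9 passed against 12.7%. Under smoke against air in parenchyma the difference in log2FC was 1.48 for Tcf21, 1.16 for Tbx2, 0.96 for Tbx4, 0.86 for Npnt, 1.43 for Itga8, 0.80 for Pdgfra, 1.53 for Fgfr4, 1.55 for Inmt, 1.54 for Pcolce2 and 1.14 for Nox4. In airways it was 0.80 for Tcf21, 0.80 for Itga8, 0.84 for Fgfr4, 1.03 for Inmt and 1.08 for Pcolce2. With against without dexamethasone in parenchyma it was 1.25 for Tcf21, 0.90 for Tbx2, 0.59 for Tbx4, 1.01 for Itga8, 1.00 for Fgfr4, 1.25 for Inmt, 1.00 for Pcolce2 and 0.61 for Nox4. In airways it was 0.90 for Tcf21, 0.68 for Itga8, 1.08 for Inmt and 0.84 for Pcolce2. Between airway and parenchyma it was 0.83 for Tcf21, 0.89 for Tbx2, 0.86 for Tbx4, 0.92 for Npnt, 0.67 for Itga8, 0.69 for Pdgfra, 1.07 for Fgfr4, 0.61 for Inmt and 0.57 for Nox4.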

How the results depend on the processing

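For the changes of the 10 genes at 11 weeks that passed, 1069 of 1106 values under alternatives other than the block below kept their direction and an adjusted p under 0.05, 37 kept only the direction and 0 reversed. Without the libraries that stood apart, which was chosen after seeing the data, all of these passed except Tbx4 (dexamethasone alone, airway) and Nox4 (HDM by compartment). A further 14 changes passed then but not in the main fit, among them Tbx4, Npnt and Pdgfra for HDM in air in airways. The cause of the following changes in counts was not tested. For HDM in air in airways 8 genes passed with edgeR, 9 with DESeq2 and 10 with quality weights and without the libraries that stood apart, in place of 7. For HDM by compartment 7 passed with edgeR, DESeq2 and no filter, in place of 9. For smoke added to HDM 8 passed in parenchyma with these 3 in place of 9, and 4 in airways with no filter, 1 fit of both times and each compartment fitted alone in place of 5. For dexamethasone in HDM mice 5 passed in parenchyma with no filter and 8 with each compartment fitted alone in place of 7. For HDM under smoke in airways 2 genes passed in place of 1 with edgeR, DESeq2, DESeq2 size factors in limma-voom, the filter of 10 CPM in 9 libraries, sample quality weights and without the libraries that stood apart. In parenchyma the same count was 2 with DESeq2, with that filter, with 1 fit of both times and without the libraries that stood apart, 3 with each compartment fitted alone, 5 with quality weights and 0 with no filter. For smoke alone in airways it was 2 with quality weights and without those libraries. For dexamethasone alone in airways it was 0 with quality weights and 1 under each of the other 8 alternatives in place of 2. For dexamethasone in smoke mice it was 1 in place of 0 in airways with edgeR, DESeq2, quality weights and without the libraries that stood apart, and in parenchyma 2 with DESeq2 and 3 with quality weights in place of 1. For dexamethasone in mice given HDM and smoke it was 2 in airways with 1 fit of both times and without the libraries that stood apart, 3 with quality weights, and 1 in parenchyma with each compartment fitted alone. For HDM under smoke and dexamethasone in parenchyma it was 1 with edgeR, 2 with DESeq2 size factors in limma-voom, 3 with 1 fit of both times, 4 with the filter of 10 CPM, 5 with DESeq2 and with each compartment fitted alone, and 8 with quality weights. The HDM by dexamethasone difference in airways passed for 7 with quality weights in place of 4. Inmt had 2130.0 CPM per kb by longest transcript and 1434 by all exons. DESeq2 size factors in limma-voom moved the median log2FC of all genes most for HDM at 3 weeks in parenchyma (-0.13 to -0.04), and dropping the filter moved it from 0.03 to 0.17 for HDM under dexamethasone in parenchyma. The labels number all libraries and do not say which share a mouse, but each pair of consecutive codes held the airway and parenchyma of 1 exposure and time. Over 80 such pairs at 11 weeks the correlation of deviations from the group means ran from -0.02 to 0.58 (median 0.31, against -0.04 for other libraries of the same 2 groups), 75 were over 0.1, and 65 of 80 airway libraries were closest to their own pair among 10, a hint of pairing from the data. With the pair as a replicate block, added after seeing the data, 3 calls were lost, Npnt for smoke added to HDM in airways (4 genes in place of 5), Tbx4 for dexamethasone alone in airways (1 in place of 2) and Inmt for HDM under smoke in parenchyma (0 in place of 1), and no other call among the 10 genes changed.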
